A study of Mus musculus with 9 samples.

Results

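The Hedgehog pathway genes followed here are Ihh, Smo, Ptch1, Ptchd4, Hhip, Gli1, Gli2, Gli3 and Sufu, 9 of the 40548 genes in the tables of mouse calvarial osteoblast differentiation. They were found by their symbols, and the set had been chosen by measured values of these same libraries, that is, by their levels over the stages and their difference between day 0 and day 7. Values of the members are therefore given as a description with no p-value. The cells came from the skulls of C57BL/6 pups (C57BL/6J in the methods) at postnatal day 2 to 3, with no other allele or agent named in the labels, were grown to confluency, and were collected either before differentiation (day 0) or after 4 or 7 days in mineralization medium. Each stage had 3 libraries made after depletion of ribosomal RNA. The study calls them biological replicates, and the labels do not tie a library to a litter or a culture. Cells that had mineralized were released with collagenase I before trypsin and the others with trypsin alone, so the way of release and the stage cannot be told apart.

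Hedgehog ligands bind the receptor PTCH1, which otherwise keeps the membrane protein SMO inactive. Active SMO, working in the primary cilium, frees the GLI transcription factors from SUFU and from cleavage into repressors. GLI1 is an activator whose own gene is turned on by the pathway, as are Ptch1 and Hhip, which encode inhibitors of the pathway and so close a feedback loop. In bone, Indian hedgehog (Ihh) from cartilage is known for starting osteoblast development in the long bones, whereas the flat bones of the skull form mostly without a cartilage template.

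Gli1, Hhip and Ptch1 were higher in all day 4 libraries than in any day 0 library, and higher again in all day 7 libraries. Between day 0 and day 7 the mean level went from 0.277 ± 0.0219 to 5.96 ± 1.47 RPKM for Gli1, from 0.119 ± 0.0271 to 2.70 ± 0.717 RPKM for Hhip and from 2.10 ± 0.186 to 15.5 ± 3.48 RPKM for Ptch1 (SD, n = 3). Ptchd4 went the other way, from 6.35 ± 0.999 to 0.707 ± 0.206 RPKM. Smo, Gli3 and Sufu were lower at day 7 than at day 0 by less than 2-fold, and Ihh and Gli2 had overlapping values at the 2 stages. RPKM scale the reads on a gene to the length of its model and to the reads on all genes of the library, so levels can be compared between genes on this scale.

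The bases in front of the starts of Ptch1, Hhip and Ptchd4 are shown because these are the members with the widest differences, in opposite directions, for which a start was given. They are the 250 bases upstream of the RefSeq transcription start on GRCm38.p6, read 5′ to 3′ on the strand of the gene. Capitals mark a GC box, GGGCGG or its complement CCGCCC, the binding sequence of SP family factors. The Ptch1 stretch is chr13:63565736-63565985 on the minus strand, the Hhip stretch chr8:80058009-80058258 on the minus strand and the Ptchd4 stretch chr17:42315697-42315946 on the plus strand.
Ptch1: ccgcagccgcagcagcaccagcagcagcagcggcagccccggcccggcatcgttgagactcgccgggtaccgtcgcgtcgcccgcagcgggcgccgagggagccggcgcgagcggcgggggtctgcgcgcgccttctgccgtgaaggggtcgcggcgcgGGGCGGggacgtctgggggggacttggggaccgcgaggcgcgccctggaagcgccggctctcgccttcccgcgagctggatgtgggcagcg
Hhip: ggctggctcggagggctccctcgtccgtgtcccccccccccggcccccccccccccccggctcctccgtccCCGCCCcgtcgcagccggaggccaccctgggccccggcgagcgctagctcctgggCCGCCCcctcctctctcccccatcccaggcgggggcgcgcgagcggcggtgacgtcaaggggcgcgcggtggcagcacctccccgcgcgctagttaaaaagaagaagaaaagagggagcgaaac
Ptchd4: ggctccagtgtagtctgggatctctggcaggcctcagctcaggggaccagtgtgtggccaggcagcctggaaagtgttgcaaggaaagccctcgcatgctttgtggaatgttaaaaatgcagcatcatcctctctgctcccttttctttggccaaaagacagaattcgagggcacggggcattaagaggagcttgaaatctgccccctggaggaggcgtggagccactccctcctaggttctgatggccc
Of the 9 members, 8 matched the RefSeq table and gave 9 stretches, since Ptchd4 has a pair of starts. Gli1 was not matched. The start of Ptch1 lies inside the longer gene of the GENCODE annotation, and none of the 3 stretches overlapped an annotated exon. Ptch1 had 1 GC box, Hhip had 2 and the first start of Ptchd4 had 0, whereas the second start of Ptchd4 had 2. The CpG dinucleotide occurred 41 times in the Ptch1 stretch, 28 times in that of Hhip, and 4 and 24 times in the stretches of Ptchd4. A GC box was in 7 of the 9 stretches and in 32.7% of all 32851 stretches of the table. The GLI recognition sequence GACCACCCA, searched on both strands (complement TGGGTGGTC), was in 0 of the 9 stretches and in 0.225% of all, which says only that these letters are not in these windows. The TATA box letters TATAAA, also on both strands, were in 0 of the 9 and in 12.4% of all.

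The reads counted on genes numbered 7741204 to 14013219 per library at day 0, 32820610 to 37306090 at day 4 and 10675858 to 15622755 at day 7. Day 4 was deposited in tables of its own and sequenced more deeply, so its levels are given side by side with those of the other stages and entered no test. Osteoblast markers were present at all stages, and the summed RPKM of 7 of them (Runx2, Sp7, Alpl, Col1a1, Ibsp, Bglap and Bglap2) was 1802 to 2516 before differentiation, 5599 to 6399 after 4 days and 8022 to 10035 after 7 days. Such a sum is weighted toward the most abundant genes. Of the 7, 6 rose between day 0 and day 7 and 1 did not pass, with a median log2 difference of 4.35. All 5 endothelial markers stayed under 1 RPKM in every library. Osteocyte markers, 5 in all, summed to 0.365 to 0.523 RPKM at day 0, 78.0 to 111 RPKM at day 4 and 71.2 to 141 RPKM at day 7, and all 4 that could be tested rose, with a median log2 difference of 4.67. Their part in the levels of the members was not tested. Macrophage and osteoclast markers summed to 107 to 139 RPKM at day 0 and 246 to 254 RPKM at day 7. Proliferation markers summed to 80.6 to 123 RPKM at day 0 and 60.1 to 72.6 RPKM at day 7. Some libraries stood apart in a few abundant gene models. Gm42418, Lars2, Gm15564 and Mir6236, of which the first 2 are known to collect reads of ribosomal RNA, together took 19.0% of the reads in day 0 replicate 3 and 12.0% in day 7 replicate 2, against 0.173% to 4.85% in the other 7 libraries. Plekhh2 took 7.95% of the reads in day 7 replicate 3 and at most 0.56% elsewhere. In such bulk samples, fewer cells of a type and less RNA per cell cannot be told apart.

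**Figure D1:**
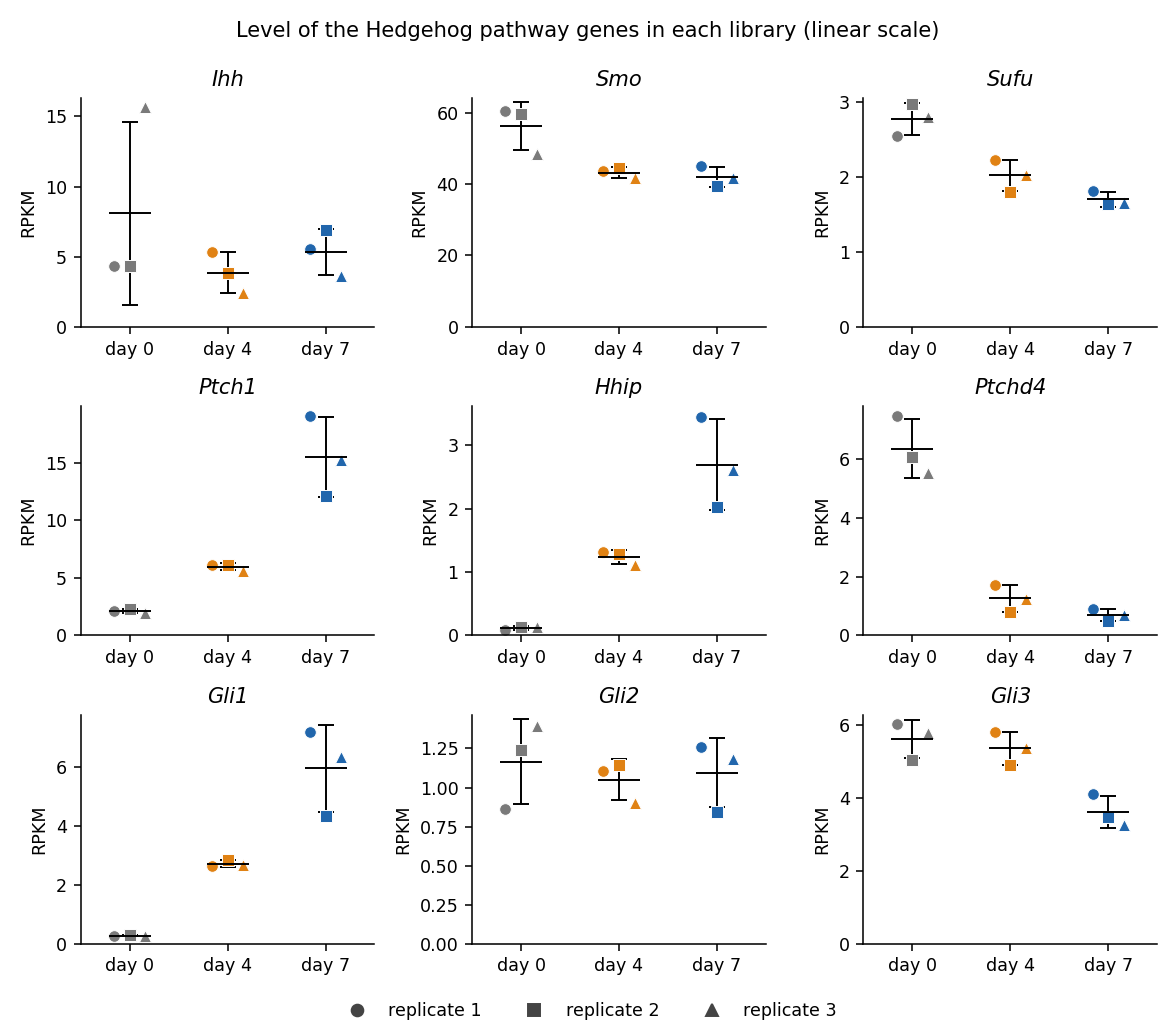
RPKM (linear scale, each panel with its own range) of the 9 members in each of the 9 libraries. Grey, orange and blue points are day 0, day 4 and day 7 libraries, the point shape is the replicate, and the black lines are the mean and SD of 3 libraries. Gli1, Hhip and Ptch1 step up at both intervals, Ptchd4 is at 5.51 to 7.45 RPKM at day 0 and at 0.503 to 0.914 at day 7, and Ihh at day 0 has replicate 3 at 15.6 RPKM and the others near 4.3.

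Ihh, the ligand, lies on chromosome 1 (GRCm38, 74945315 to 74951672, minus strand). It had 4.35, 4.31 and 15.6 RPKM in day 0 replicates 1, 2 and 3. At day 4 it had 5.35, 3.83 and 2.44 RPKM, and at day 7 it had 5.55, 6.91 and 3.65 RPKM. The groups overlapped at each pair of stages, and day 0 replicate 3 stood above the other 8 libraries. The difference of day 7 from day 0 on the log2(CPM + 0.5) scale was −0.35 (standard error 0.26), and it was 0.26 without day 0 replicate 3, 0.19 with quality weights per library, and −0.66 to −0.10 when any other library was left out. The sign of the difference thus changed without that library.

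The order of the Ihh values within a stage was also that of Dnajc5, a chaperone gene, in each of the 3 stages. Over the 9 libraries Dnajc5 was the gene most alike to Ihh of 12781 compared, with a mean absolute difference of 0.13 between the 2 genes' log2(CPM + 0.5) values after centring each on its own mean. It was followed by Lyrm9 (0.23) and Sec14l2 (0.27). Dnajc5 had 430, 388 and 1429 RPKM at day 0, with its highest value in the same library as Ihh, and 369, 557 and 330 RPKM at day 7. The summed share of Gm42418, Lars2, Gm15564 and Mir6236, a measure chosen after the values were seen, was 4.33%, 4.59% and 19.0% of the reads in day 0 replicates 1, 2 and 3. It was 4.85%, 4.18% and 2.13% at day 4 and 1.65%, 12.0% and 0.173% at day 7. At day 4 and day 7 it ordered the libraries as Ihh did, and at day 0 its highest library was that of Ihh. Their part in the Ihh values was not tested. With these 4 models and Plekhh2 left out of the totals, the Ihh difference was −0.39. Cartilage markers, 9 in all, summed to 489, 173 and 191 RPKM in day 0 replicates 1, 2 and 3. Of these, Col2a1, the main collagen of cartilage, had 419.8, 140.2 and 157.9 RPKM, and so made up most of the sum. The part of cartilage cells in the Ihh values was not tested.

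**Figure D2:**
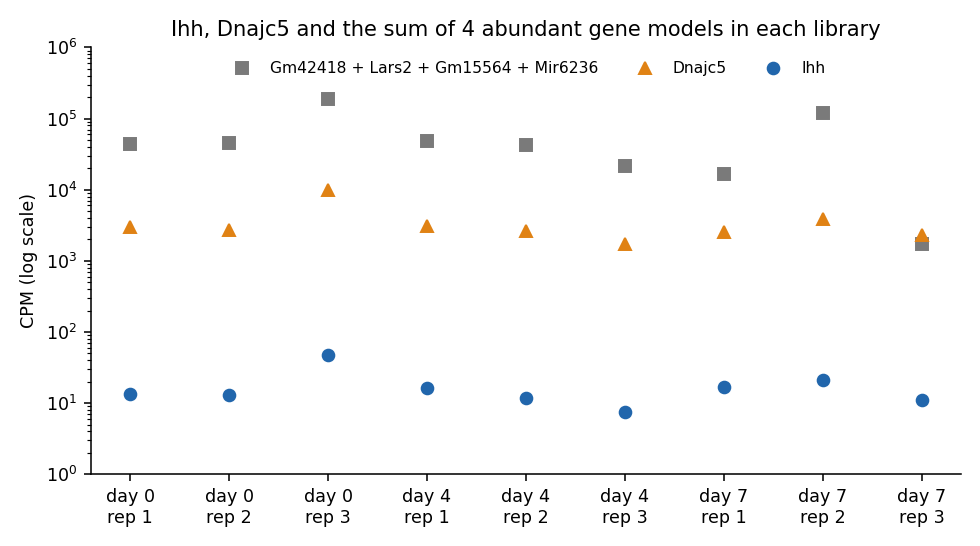
CPM (log scale) in each library of Ihh (blue circles), Dnajc5 (orange triangles) and the sum of Gm42418, Lars2, Gm15564 and Mir6236 (grey squares). All 3 are highest in day 0 replicate 3, and within day 7 all 3 are highest in replicate 2 and lowest in replicate 3.

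The other ligand genes were at the edge of detection. Shh had at most 1 read in any library and Dhh had at most 3, which is the floor set for detection, whereas Ihh had 157 to 536 reads per library. The tables give 1 value per gene, so where on the Ihh gene these reads lie, and whether all come from its transcript, was not tested. Of the 8 other genes of ligand production and release, 5 could be tested between day 0 and day 7, with limma on log2(CPM + 0.5) and Benjamini-Hochberg adjustment over 12712 genes. Of these, 2 rose, 1 fell and 2 did not pass, where 12.6% of all genes tested were higher at day 7 and 18.6% lower. Scube1, which encodes a secreted protein of the family that helps release lipid-bearing ligands, rose from 0.398 ± 0.0654 to 1.99 ± 0.855 RPKM (SD, n = 3), a log2 difference of 2.09 (standard error 0.22, limma adjusted p = 8.67e-11). Its relative Scube2 rose by 1.11 (adjusted p = 0.00128, and 0.0562 without day 0 replicate 1), and Scube3 fell by 0.96 (adjusted p = 0.000166). Disp1, the exporter of the ligands, was at 10.7 to 12.3 RPKM at day 0 and 9.74 to 12.6 RPKM at day 7, with a log2 difference of −0.08 (adjusted p = 0.748). Hhat, the enzyme that attaches palmitate to the ligands, had a log2 difference of −0.19 (adjusted p = 0.454). Its values were 1.82 to 2.24 RPKM at day 0, 2.40 to 2.84 at day 4 and 1.69 to 1.76 at day 7. Day 4 thus lay above both other stages. The related Hhatl had at most 2 reads in a library.

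Ptch1, the receptor and negative regulator, is on chromosome 13 from 63508328 to 63573598 on the minus strand. It had 2.09, 2.29 and 1.92 RPKM at day 0, 6.12, 6.15 and 5.60 RPKM at day 4, and 19.1, 12.1 and 15.3 RPKM at day 7. No value of a stage overlapped those of the next. The log2 difference of day 7 from day 0 was 2.80 (standard error 0.18), with a range of 2.64 to 3.00 over the alternatives, and it ranked 141st from the highest among the 12712 genes tested. The mean at day 4 was 2.84 times that at day 0, and the mean at day 7 was 2.60 times that at day 4.

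Hhip encodes a membrane protein that binds and holds back the ligands, and is on chromosome 8 from 79965851 to 80058006 on the minus strand. It had 0.0874, 0.137 and 0.132 RPKM at day 0, from 5 to 8 reads per library. At day 4 it had 1.32, 1.28 and 1.12 RPKM, and at day 7 it had 3.45, 2.03 and 2.61 RPKM. The stages did not overlap, and the mean at day 7 was 22.7 times that at day 0. The log2(CPM + 0.5) difference was 3.64 (standard error 0.24), which understates the change of so low a gene, and it ranged from 3.14 to 4.68 over pseudocounts and count models. With few reads at day 0, the size of the difference is less firmly set than that of Ptch1.

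Ptchd4, a gene of the patched domain family, is on chromosome 17 from 42315947 to 42505077 on the plus strand. It had 7.45, 6.08 and 5.51 RPKM at day 0, 1.73, 0.785 and 1.25 RPKM at day 4, and 0.914, 0.503 and 0.706 RPKM at day 7. Day 0 lay above both later stages with no overlap, whereas days 4 and 7 overlapped. The log2 difference of day 7 from day 0 was −3.06 (standard error 0.19), the 6th lowest of the 12712 genes tested. At day 0 its level was above that of Ptch1 in every library, and at days 4 and 7 below it in every library. Among 6 relatives with a patched-like or sterol-sensing domain, 2 could be tested. Ptchd1 fell from 0.651 ± 0.108 to 0.192 ± 0.0767 RPKM (SD, n = 3), a log2 difference of −1.20 (limma adjusted p = 0.000614), and Npc1, a cholesterol transporter of the lysosome, had a log2 difference of 0.33 (adjusted p = 0.0994).

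Smo, the signal transducer, is on chromosome 6 from 29735503 to 29761365 on the plus strand and was the most abundant member at each stage. It had 60.5, 59.7 and 48.4 RPKM at day 0, 43.5, 44.4 and 41.6 RPKM at day 4, and 44.9, 39.5 and 41.6 RPKM at day 7. Every day 7 value lay below every day 0 value, by a log2 difference of −0.41 (standard error 0.15). The ratio of Smo to Ptch1 on the RPKM scale went from 26.8 ± 1.98 to 7.26 ± 0.161 and then to 2.78 ± 0.455 over the 3 stages (SD, n = 3).

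Sufu, which encodes a cytoplasmic inhibitor of the GLI proteins, is on chromosome 19 from 46396896 to 46488804 on the plus strand. It had 2.55, 2.97 and 2.79 RPKM at day 0, 2.22, 1.80 and 2.03 RPKM at day 4, and 1.81, 1.63 and 1.65 RPKM at day 7. Day 0 lay above both later stages, and the log2 difference of day 7 from day 0 was −0.68 (standard error 0.18), or −0.57 relative to the median of all genes.

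Gli1, the activator and target of the pathway, is on chromosome 10 from 127329882 to 127341974 on the minus strand. It had 0.253, 0.297 and 0.282 RPKM at day 0, from 8 to 13 reads per library. It had 2.63, 2.86 and 2.69 RPKM at day 4, and 7.21, 4.34 and 6.34 RPKM at day 7. The stages did not overlap, and the mean at day 7 was 21.5 times that at day 0. The log2(CPM + 0.5) difference was 3.85 (standard error 0.22), which ranked 61st from the highest of 12712 genes, with a range of 3.47 to 4.58 over the alternatives. Arhgap9 overlaps Gli1 on the opposite strand, and whether counting used the strand is not given in the sources used here. It had 3 to 29 reads per library.

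Gli2, which encodes the main activator among the full-length GLI proteins, is on chromosome 1 from 118834132 to 119053619 on the minus strand. It had 0.862, 1.24 and 1.39 RPKM at day 0, 1.10, 1.15 and 0.904 RPKM at day 4, and 1.26, 0.845 and 1.18 RPKM at day 7. All 3 stages overlapped, with a log2 difference of day 7 from day 0 of −0.08 (standard error 0.21), and −0.27 to 0.14 over the alternatives.

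Gli3, whose protein acts mostly as a repressor after cleavage, is on chromosome 13 from 15463235 to 15730026 on the plus strand. It had 6.05, 5.06 and 5.80 RPKM at day 0, 5.83, 4.92 and 5.38 RPKM at day 4, and 4.13, 3.48 and 3.27 RPKM at day 7. Days 0 and 4 overlapped and day 7 lay below both, with a log2 difference of day 7 from day 0 of −0.63 (standard error 0.16).

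The make-up of the 3 GLI transcripts thus differed between stages. Gli1 was 3.93% ± 0.502 of the summed RPKM of Gli1, Gli2 and Gli3 before differentiation, 29.8% ± 2.25 after 4 days and 55.4% ± 4.60 after 7 days (SD, n = 3). Gli3 took 79.6% ± 4.23, then 58.7% ± 3.11 and then 34.4% ± 5.11. Gli2 made up 16.5% ± 3.86, then 11.5% ± 1.38 and 10.2% ± 0.643. These are shares of transcripts, and the cleaved and full-length forms of the proteins are not measured by them.

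**Figure D3:**
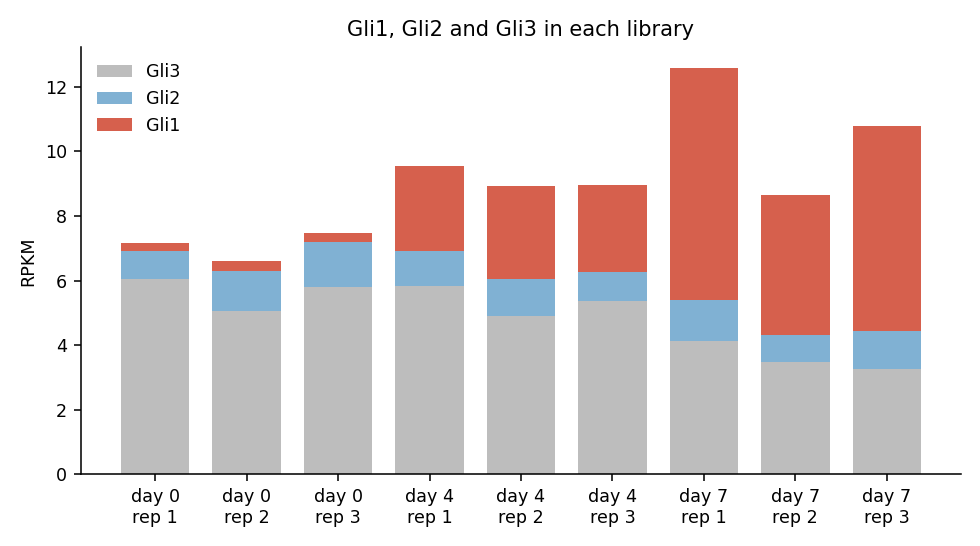
Stacked RPKM (linear scale from 0) of Gli3 (grey), Gli2 (blue) and Gli1 (red) in each of the 9 libraries. The Gli1 part of the bar is 3.53% to 4.50% of it at day 0 and 50.1% to 58.7% at day 7, and the Gli3 part is shorter in each day 7 library than in the other 6.

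In the order of the levels, Smo stood first at each stage and apart from the next gene. At day 0 Ihh, Ptchd4 and Gli3 followed with overlapping neighbours, and Sufu, Ptch1, Gli2, Gli1 and Hhip came below them without overlap between neighbours. At day 7 Ptch1 was second and apart from its neighbours, and Gli1, Ihh, Gli3 and Hhip followed with overlapping neighbours. Sufu, Gli2 and Ptchd4 were lowest, the last 2 with overlapping values. Hhip was thus last at day 0 and Ptchd4 last at day 7.

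Of the 9 members, 3 (Ptch1, Hhip and Gli1) had all day 7 values above those of day 0, whereas 4 others (Smo, Ptchd4, Gli3 and Sufu) had them below. Of the 12712 genes tested, 42.3% had no overlap between these stages, in one direction or the other. Since the members were chosen by this contrast, nothing is read from these counts. The same 3 higher members were higher at both steps without overlap, as were 3.09% of all genes. The median difference of all genes was −0.11 and shifted by 0.10 with median-of-ratios scaling, and under this scaling the 3 higher and 4 lower members kept their sign.

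**Figure D4:**
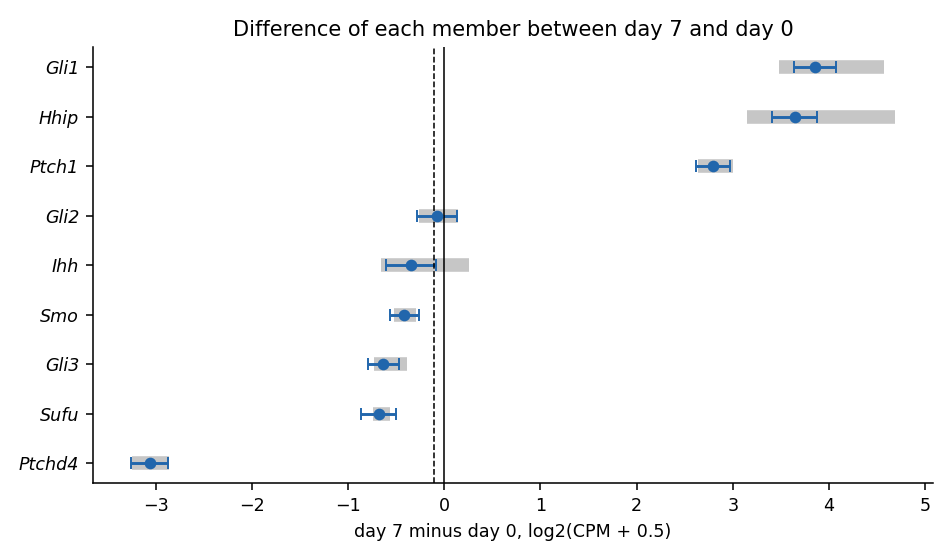
Difference of day 7 from day 0 on the log2(CPM + 0.5) scale for each member (blue point, with its standard error) and its range over the 15 alternatives (grey band). The solid line is 0 and the dashed line the median of all genes tested. The bands of Gli1, Hhip and Ptch1 lie above 2, that of Ptchd4 below −2, and those of Ihh and Gli2 cross 0.

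Within day 7, replicate 1 was highest and replicate 2 lowest for 7 of the 9 members, all but Ihh and Gli3. The share of all genes with this order was not counted, so nothing is read from it about the members. Gm42418, Lars2, Gm15564 and Mir6236 together took 1.65%, 12.0% and 0.173% of the reads in replicates 1, 2 and 3 of this stage. Plekhh2 took 7.95% in replicate 3. Reads on such models lower the RPKM of all other genes of a library, and their part in the order was not tested. The ratio of Ptch1 to Hhip was 5.52 to 5.99 in the day 7 libraries and the ratio of Ptch1 to Gli1 was 2.41 to 2.79. The osteoblast markers summed to 10035, 8232 and 8022 RPKM in day 7 replicates 1, 2 and 3, with replicate 3 lowest, unlike those 7 members. The cartilage markers summed to 291, 184 and 198 RPKM, in the order of those 7 members. The cartilage sums were 489, 173 and 191 RPKM at day 0 and 240, 144 and 165 RPKM at day 4. At both stages their order was the reverse of that of Gli1 and the same as that of Gli3. The remaining members had neither order at both stages. With 8 to 13 reads per library, the order of Gli1 at day 0 is weakly set. Of the cartilage list, Matn1 and Matn3 were under 1 RPKM in every library. The part of these cells in the members' levels was not tested.

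Over the 9 libraries, the gene most alike to Gli1 was Hhip, another member, with a mean absolute difference of 0.11 between the centred log2(CPM + 0.5) values. The members were chosen by their levels in these libraries, so nothing is read from this likeness. Next were Ppm1e, a phosphatase gene (0.13), and Smagp (0.14). Smagp had 0 to 1 reads per library at day 0, under the floor of 3 reads, so its likeness rests in part on the pseudocount. Ppm1e was at a mean of 0.360 ± 0.0453 RPKM before differentiation, and at 2.51 ± 0.140 and 5.39 ± 0.839 RPKM after 4 and 7 days (SD, n = 3). The genes most alike to Ptch1 were Kcnma1, a potassium channel gene (0.12), Fat3 (0.13) and Tmem119 (0.14), a membrane protein gene of osteoblasts. Tmem119 was at 42.1 ± 6.23, 117.4 ± 10.8 and 242 ± 31.9 RPKM at the 3 stages.

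The other genes of the pathway were tested from 5 lists, which were written with earlier results of these data known. Of 117 genes, 106 could be tested, of which 12 rose (11.3%), 27 fell (25.5%) and 67 did not pass, against 12.6% higher and 18.6% lower, 31.2% together, among all genes. Their median difference was −0.18, or −0.06 from the median of all genes. The number of falls depended on single libraries, with 14 without day 0 replicate 2, 45 without day 0 replicate 3 and 16 without day 7 replicate 2, while 10 to 11 genes rose in these fits. Of the 12 that rose, 7 passed under every one of the 15 alternatives, as did 13 of the 27 that fell. The share of called genes that were higher was 40.3% among all genes as deposited and 51.8% after median-of-ratios scaling, and it was 30.8% and 40.0% among the pathway genes.

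Of 11 other surface receptors, co-receptors and glypicans, 9 could be tested, with 1 that rose (11.1%) and 6 that fell (66.7%). Among all genes 12.6% were higher and 18.6% lower. The median difference of these 9 was −0.58, against −0.11 for all genes. Gas1 and Cdon, which encode co-receptors that present ligand to PTCH1, were among the falls. Gas1 had 36.9, 42.0 and 25.5 RPKM at day 0 and 18.1, 16.3 and 16.0 RPKM at day 7, a log2 difference of −1.02 (standard error 0.17, limma adjusted p = 2.62e-06). Cdon fell from 16.2 ± 1.67 to 8.05 ± 0.473 RPKM (standard error of the log2 difference 0.15, adjusted p = 7.41e-07). Boc, the third co-receptor, was at 19.8 to 23.0 RPKM at day 0 and 18.3 to 22.5 RPKM at day 7, with a log2 difference of −0.13 (adjusted p = 0.572). Gpc3, a glypican that takes up ligand at the cell surface, fell by 0.72 (adjusted p = 0.000572), as Gpc2, Gpc4 and Gpc6 also did, whereas Gpc1 rose by 0.66 (adjusted p = 0.00209). Of these 7 calls, that of Gpc6 held in 9 of the 15 alternatives and the others in all of them.

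All 30 regulators of SMO and the GLI proteins could be tested, of which 3 rose (10%), 8 fell (26.7%) and 19 did not pass. Among all genes 12.6% were higher and 18.6% lower. Arrb1, a β-arrestin that carries SMO to the cilium, rose from 0.977 ± 0.146 to 6.06 ± 1.58 RPKM (SD, n = 3), a log2 difference of 2.56 (limma adjusted p = 1.45e-16). Gpr161, a ciliary receptor that restrains the pathway through protein kinase A, fell from 6.28 ± 0.967 to 2.61 ± 0.294 RPKM, a log2 difference of −1.21 (adjusted p = 1.01e-06). Prkacb and Prkar1a, subunits of protein kinase A, fell by 0.72 and 0.49, and Evc and Evc2, partners of SMO at the base of the cilium, by 0.63 and 0.41. Prkaca, another subunit of the kinase, did not pass (log2 difference −0.26, limma adjusted p = 0.202). The calls of Prkar1a and Evc2 held in 13 and 9 of the 15 alternatives.

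Of 51 genes of the primary cilium, 49 could be tested, of which 2 rose (4.08%), 10 fell (20.4%) and 37 did not pass. Among all genes 12.6% were higher and 18.6% lower. The median difference of the cilium genes was −0.17. Wdr35, a part of the retrograde transport complex, fell most, from 9.01 ± 0.446 to 5.09 ± 0.143 RPKM (SD, n = 3), a log2 difference of −0.81 (limma adjusted p = 4.71e-05). Ttc26, of the anterograde complex, rose most, by 0.49 (adjusted p = 0.0404), a call that held in 9 of the 15 alternatives.

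Of 18 genes described elsewhere as GLI targets, 13 could be tested, of which 4 rose (30.8%), 2 fell (15.4%) and 7 did not pass. Among all genes 12.6% were higher and 18.6% lower. The median difference of the 13 was −0.14. Grem1, a secreted BMP antagonist, rose most, from 3.48 ± 0.159 RPKM at day 0 to 79.8 RPKM at day 4 and 40.9 ± 3.35 RPKM at day 7 (SD, n = 3), a log2 difference of day 7 from day 0 of 3.51 (limma adjusted p = 4.47e-24). Unlike Gli1, Hhip and Ptch1, it was higher at day 4 than at day 7 in every library. Jag2, a Notch ligand gene, rose by 3.41 and Bcl2, which encodes a survival factor, by 1.10, and Mycn, at 0.157 to 0.347 RPKM at day 0 and 0.313 to 0.816 RPKM at day 7, by 0.89, with overlapping values and a call that held in 12 of the 15 alternatives. Foxf1 fell most, by 1.09 (adjusted p = 0.00104), and Foxd1, another forkhead factor gene, by 0.61.

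The GLI-like zinc finger relatives were a list of 8 genes. All 8 could be tested, of which 0 rose and 6 fell (75%), against 12.6% higher and 18.6% lower among all genes. At an unadjusted p under 0.05 also 0 were higher, and their median difference was −0.90. Zic4 fell most, from 2.87 ± 0.306 to 0.948 ± 0.178 RPKM (SD, n = 3), a log2 difference of −1.56 (limma adjusted p = 1.14e-09). Zic1 and Zic2 also fell, each under all 15 alternatives, and Glis1 and Glis2 fell in 7 and 9 of them.

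**Figure D5:**
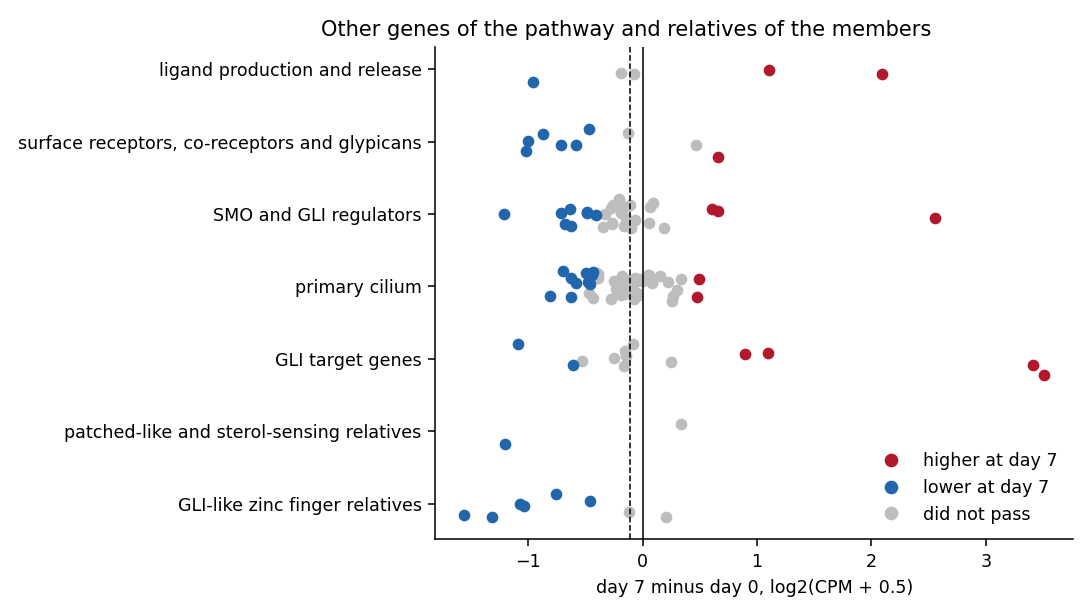
Difference of day 7 from day 0 on the log2(CPM + 0.5) scale for each tested gene of the 5 pathway lists and the 2 lists of relatives. Each point is a gene, red where it was higher and blue where it was lower at an adjusted p under 0.05, and grey otherwise, and points are spread vertically only to separate them. The dashed line is the median of all genes, and the points beyond 2 are Scube1, Arrb1, Jag2 and Grem1.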

How the data were processed

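RNA was sequenced from 9 libraries, 3 per stage. Per the labels and methods, the authors aligned reads to GRCm38 with STAR 2.0.4b, counted uniquely aligned reads with featureCounts and deposited CPM values (reads scaled to the reads on all genes of a library) and RPKM values (CPM per kilobase of gene model). Whether strand was used is not given in the sources used here. All CPM were whole multiples of 1 read (100%, within 0.1 read), so reads were recovered. Days 7 and 0 were compared with limma 3.58.1 (R 4.3.3, mean-variance trend) on log2(CPM + 0.5) in the 12712 genes whose mean CPM over the 6 libraries reached 1, with Benjamini-Hochberg adjustment and a threshold of 0.05. With 42.9 prior and 4 residual degrees of freedom, a gene's own spread counted little. The study calls the libraries biological replicates. The labels name no animal or culture, and p-values rest on the spread between these samples, mostly as pooled over genes.

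Members and lists were chosen with earlier results of these data known. Named genes are the members, the largest rise and fall in each list, the ligand list, Boc, Cdon, Gas1, Gpc3 and the 3 genes most alike to Ihh, Gli1 and Ptch1. Other genes were named after their values were seen, and some items are not reported here. The floor of detection was 3 reads, which covers counting error only. Alternatives were edgeR 4.0.16 and DESeq2 1.42.0 on recovered reads, voom with quality weights, other pseudocounts (0.1 and 1), filter and scaling, a replicate block and leaving out each library. The fit was also run on simulated counts with the same dispersion for all genes and no library set apart by abundant models. It does not show how the calls behave with the uneven libraries here. Coordinates and overlaps come from GENCODE M21, and promoters from RefSeq (GRCm38.p6).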

Additional observations from a re-analysis of the deposited data

How the results depend on the processing

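The values of the 9 members differed from those reported by less than the spread between replicates in 122 of 135 alternative fits, and the 7 members without overlap between day 0 and day 7 kept their sign in all of them. The 13 that moved further concerned Hhip and Gli1 with other pseudocounts or count models, and Sufu and Gli3 with other scaling or weights. Of the pathway genes, 20 rose with median-of-ratios scaling, 20 with edgeR and 21 with voom and quality weights, and 43 fell with Gm42418, Lars2, Gm15564, Mir6236 and Plekhh2 left out of the totals, an alternative chosen after seeing the data. Among all genes, 2827 were higher with median-of-ratios scaling, 2818 with edgeR, 2581 with DESeq2 and 3148 with voom against 1602, and 3939 were lower without those 5 models against 2369. Leaving out 1 library gave 8 to 11 rising and 14 to 45 falling pathway genes, and 1174 to 1603 higher and 1527 to 4696 lower genes in all, the last without day 0 replicate 3. Disp1, which did not pass, had a log2 difference of 0.027 with median-of-ratios scaling, 0.027 with edgeR, 0.027 with DESeq2 and 0.083 with voom, opposite in sign to that reported, and of −0.17 to 0.010 when 1 library was left out. Hhat (0.022) and Boc (0.00076) changed sign with voom. The causes were not tested. Depth limits Hhip and Gli1 at day 0, with 5 to 13 reads, and Shh and Dhh at every stage. Reads were also few for Foxf1 (7 to 14) and Ptchd1 (6 to 9) at day 7 and for Scube2 at day 0 (8 to 27).

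Day 0 and day 7 libraries with the same replicate number had deviations from their stage means that correlated at −0.02, −0.18 and −0.44 over genes. No number had its highest correlation with itself. Deviations from a mean of 3 libraries depend on one another, so these values cannot tell whether libraries shared a litter or culture. With the replicate number as a block, 11 pathway genes rose and 21 fell, and 1463 genes were higher and 1950 lower in all.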
